A study of Mus musculus with 24 samples.

Results

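The first hour of the transcriptional response to lipopolysaccharide (LPS), the outer membrane glycolipid of Gram-negative bacteria, was described in a control line of RAW264.7 cells, an established mouse macrophage line. The line overexpressed CAT, a bacterial Chloramphenicol Acetyltransferase that serves as an inert control protein, and the comparison was of 3 arrays after 1 h of LPS at 20 ng/ml with 3 arrays of the same line at 0 h, before LPS. These 6 arrays were chosen by their labelled line and time out of 24 in all. The other 18 arrays were those of the CAT line at 3 h and 5 h and those of a line overexpressing Tbc1d23 at 0, 1, 3 and 5 h. Both lines were kept in medium with 10% serum and G418 at 400 ug/ml, the drug that selects for the construct, so the cells at 0 h also carried the construct and the drug. Each construct was represented by 1 line, no source used here names the promoter that drove it, and the replicates were called biological without a statement that they came from separate cultures. One-colour Agilent mouse arrays read the Cy3-labelled total RNA of each sample, and 15079 genes could be tested.

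LPS is carried by CD14 to a complex of TLR4 and MD-2 on the macrophage surface. The adaptors MyD88 and TRIF then lead to the kinases that free NF-kB from its IkB inhibitors, to the MAP kinases that raise AP-1 activity, and to the kinases that switch on IRF3 and, through it, interferon beta. Immediate early genes need no new protein to be transcribed, and in macrophages they include transcription factors, the first cytokines and chemokines, and a layer of inhibitors that limits the same pathway.

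Every level below is the log2 of a probe's background-corrected signal minus the log2 of its array's 75th percentile, so a level of 0 is the brightness of that percentile and levels of different genes are not comparable. A difference is the mean level at 1 h minus that at 0 h, on the log2 scale, and is given ± the standard error of the limma fit with n = 3 arrays a group, while levels are given ± SD. A gene is said to have risen or fallen where its Benjamini-Hochberg adjusted p in limma was under 0.05, which is also what "called" means, and a probe was taken as measured where the scanner software marked it well above background. On the 6 arrays the 75th percentile of the signal lay between 194.6 and 276.5, and the share of probes well above background between 50.4 and 54%. Replicates correlated at r = 0.989 to 0.994 across 13258 genes, and arrays of different times at r = 0.977 to 0.984. Of 18 macrophage markers 17 could be tested, all 17 were well above background on all 6 arrays, and Cd14 was the 1 marker that was called, higher at 1 h. Of the T and NK cell, B cell, granulocyte and erythroid, and fibroblast and epithelial markers, 5, 4, 4 and 4 could be tested, and 0 of them were called by limma, with 0, 1, 0 and 0 at an unadjusted p under 0.05 and 1, 1, 0 and 1 called with the replicate as a block. The summed T and NK marker signal was 0.654 to 1.1 times the 75th percentile at 0 h and 0.853 to 1.2 times at 1 h, against 2220 to 2470 and 2150 to 2430 times for the macrophage markers. The B cell sum, 34.7 to 40.5 and 24.2 to 28.5 times, came mostly from Ighm, the immunoglobulin heavy chain gene, whose difference of -0.53 ± 0.19 was not called (adjusted p = 0.135) and was called with the replicate as a block (adjusted p = 0.0375) and on a second probe, at -0.64 (adjusted p over all probes = 0.00818). The granulocyte and erythroid sum stayed between 0.215 and 0.445 times and the fibroblast and epithelial sum between 0.414 and 0.642 times over the 6 arrays. Each replicate number marked 1 slide that held all 4 times of a line, and the position of an array on its slide followed the time, so position and time cannot be told apart. The probe for Tbc1d23 did not separate the lines, with levels of 3.19 ± 0.25 and 3.30 ± 0.13 in the CAT line at 0 h and 1 h and of 3.22 ± 0.26 and 3.14 ± 0.30 in the line labelled Tbc1d23. Whether that probe, at chromosome 16, 57169122 to 57169181 of mm9, lies in the construct is not stated. The arrays of that line were uneven between its replicates. At 0 h the shares of probes well above background were 69.6, 42.1 and 57.6% in its replicates 1, 2 and 3. The 75th percentiles of the signal were 310, 238.8 and 198.9 in the same order.

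After 1 h, 551 genes had risen and 590 had fallen, 3.65% and 3.91% of those tested and 7.57% together. These shares are the ones to set beside the counts of each gene group below. The rises were larger than the falls. The median called rise was 1.16 and the median called fall was -0.80, while the median of all genes tested was -0.10. At least 8-fold rises numbered 95 and falls 3, at least 4-fold 163 and 32, and 36 genes rose at least 32-fold. Of the called genes, 472 risers and 535 fallers were well above background on all 6 arrays, 60 risers were below it on all 3 arrays at 0 h, and 28 fallers were below it on all 3 at 1 h. Below it on every array of both times were 6 called genes. The split between rises and falls moved with the scaling. Scaling to the array median moved the median of all genes to 0.04 and left 315 rises and 102 falls, so that rises made up 75.5% of the calls instead of 48.3%. With the replicate as a block, which compares arrays within a slide, 753 genes were called higher (4.99%) and 1110 lower (7.36%), and 535 of the risers and 548 of the fallers were called in both fits. The same block on the 6 arrays of this comparison alone gave 818 calls, 423 higher and 395 lower, against 876 without it, 446 higher and 430 lower. Signals at 1 h and at 0 h did not overlap for 3540 genes, 23.5% of those tested, of which 1139 were called.

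**Figure D1:**
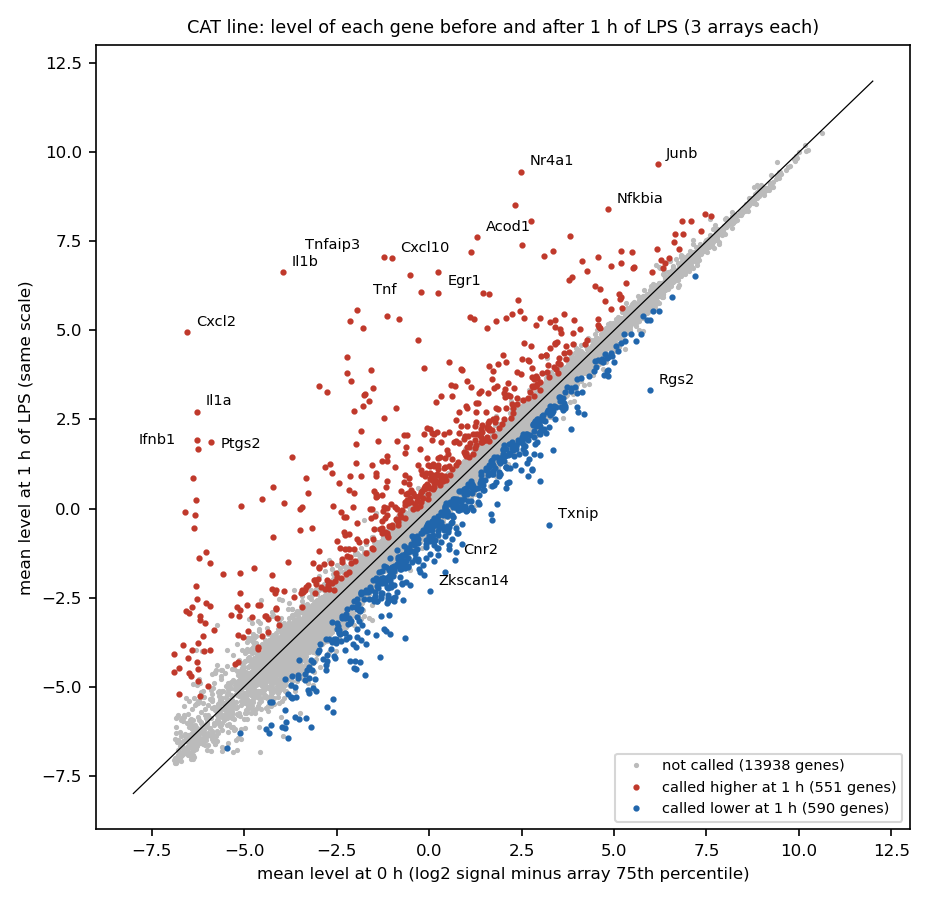
Mean level of each of the 15079 genes in the CAT line at 0 h (horizontal) and after 1 h of LPS (vertical), in log2 signal minus the array's 75th percentile, with 3 arrays a group and the diagonal marking no difference. The 551 genes called higher (red) reach much farther from the diagonal than the 590 called lower (blue); the column of red points at the left edge holds genes below background at 0 h, such as Cxcl2, Il1a, Ifnb1 and Ptgs2.

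Among genes measured on all 6 arrays the largest rise was that of Il1b, the precursor of the fever-inducing cytokine interleukin-1 beta. Its levels were -4.11, -3.88 and -3.87 at 0 h and 6.86, 6.62 and 6.41 at 1 h, a difference of 10.58 ± 0.26 (adjusted p = 4.5e-16) or 1530-fold. Tnfaip3 followed, which encodes A20, a ubiquitin-editing enzyme that shuts off NF-kB signalling. It stood at -1.20, -1.12 and -1.34 at 0 h and 6.99, 7.10 and 7.05 at 1 h, a difference of 8.26 ± 0.13 (adjusted p = 1.62e-18) or 308-fold. Cxcl10, a chemokine for activated T cells, read -0.99, -1.01 and -1.03 at 0 h and 6.97, 7.08 and 7.06 at 1 h, a difference of 8.05 ± 0.12 (adjusted p = 6.07e-19) or 264-fold. In all 3 genes the lowest array at 1 h lay far above the highest at 0 h, and no group had an SD above 0.23. Nfkbiz, an atypical IkB protein that acts with NF-kB in the nucleus, went from -1.38, -2.27 and -2.23 to 5.38, 5.59 and 5.75, a difference of 7.54 ± 0.20 (adjusted p = 1.82e-15). Tnf, the cytokine tumour necrosis factor, went from -0.24, -0.57 and -0.74 to 6.54, 6.55 and 6.59, a difference of 7.07 ± 0.14 (adjusted p = 1.89e-17) or 135-fold. For both genes the first 0 h array was the highest of the 3, still far below every 1 h array.

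Phlda1, an immediate early gene whose product carries a pleckstrin homology-like domain, stood at -1.81, -1.98 and -2.60 at 0 h and 5.34, 5.15 and 5.33 at 1 h, a difference of 7.40 ± 0.15 (adjusted p = 3.9e-17). Nr4a1, an orphan nuclear receptor also known as Nur77, stood at 2.17, 2.82 and 2.47 at 0 h and 9.46, 9.58 and 9.34 at 1 h, a difference of 6.98 ± 0.22 (adjusted p = 1.77e-14). Ccrl2, an atypical chemerin-binding receptor, stood at -2.09, -1.60 and -1.67 at 0 h and 5.03, 5.13 and 5.03 at 1 h, a difference of 6.85 ± 0.25 (adjusted p = 2.13e-13). The groups of these 3 genes did not overlap either. The remaining genes of the 15 largest rises were the transcription factors Maff, Egr3, Egr1 and Egr2, the itaconate-producing enzyme Acod1, the MAP kinase phosphatase Dusp1 and the activity-regulated gene Arc. Their differences ran from 6.15 ± 0.20 for Arc to 6.55 ± 0.24 for Maff, and none of the 15 overlapped between the groups.

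**Figure D2:**
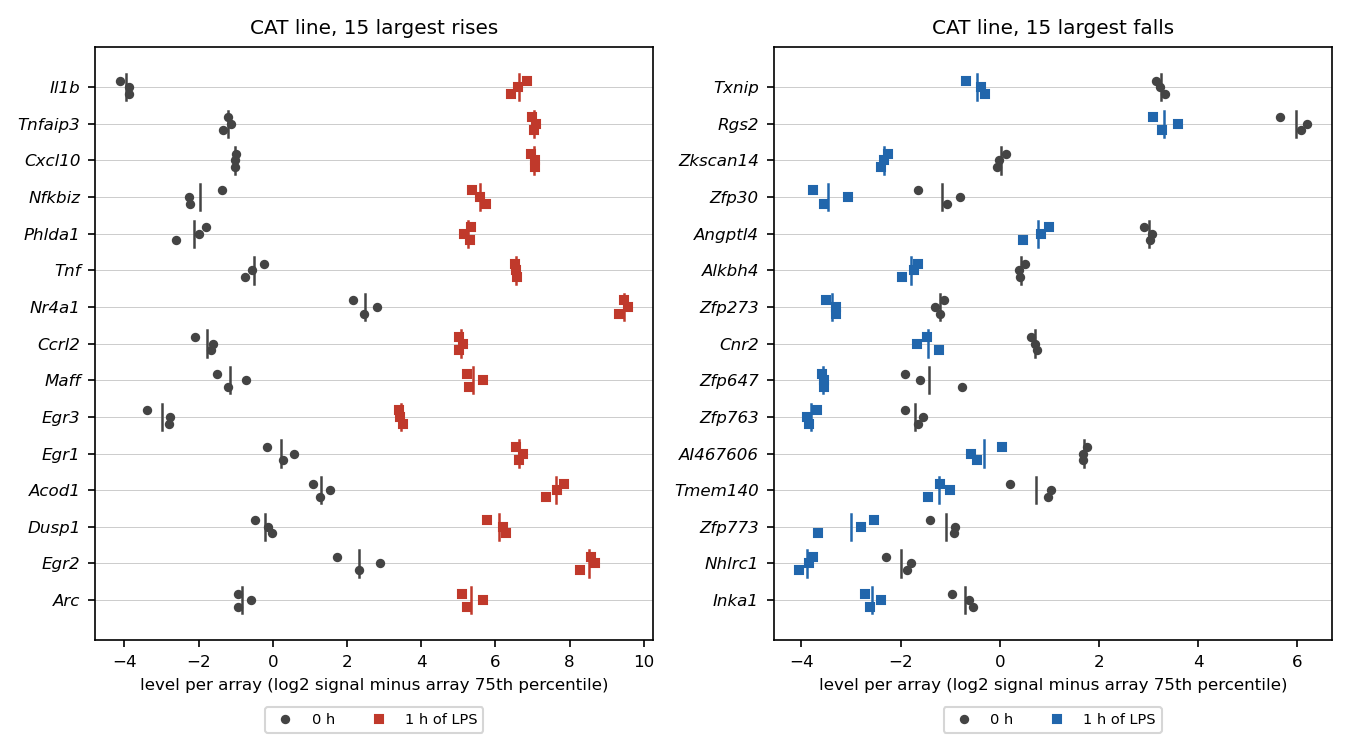
Level on each array, in log2 signal minus the array's 75th percentile, for the 15 genes with the largest rise (left) and the largest fall (right) among those measured on all 6 CAT arrays; circles are 0 h, squares 1 h of LPS, and short vertical lines the group means. Every gene shown has separate groups, the rises span differences of 6.15 to 10.58 and the falls -3.70 to -1.87.

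Several of the strongest inducible genes were below background on all 3 arrays at 0 h, so only a lower bound of their fold was measurable. The bound sets the mean level at 1 h against the dimmest signal that the arrays at 0 h still marked as well above background. The neutrophil chemokine Cxcl2 rose at least 753-fold, with levels of 4.43, 5.30 and 5.14 at 1 h and an adjusted p of 8.01e-17. Il1a, the second interleukin-1 gene and an alarmin, rose at least 160-fold, to 2.77, 2.61 and 2.78 (adjusted p = 3.34e-15). Ifnb1, the interferon beta gene, rose at least 92.5-fold, to 1.73, 2.15 and 1.91 (adjusted p = 4.74e-15). All 3 were well above background on every array at 1 h, and were chosen for being below it on every array at 0 h. Other cytokine and chemokine genes, among them Tnf, Il1b, Cxcl10 and Ccl4, were measured on every array at 0 h as well. Ptgs2, the inducible cyclooxygenase that makes prostaglandin precursors, rose at least 88.6-fold (adjusted p = 9.67e-17). The membrane protein gene Flrt3 rose at least 76.9-fold. Cxcl11, a T cell chemokine, Tmem88, the transcription factor Egr4 and the cytokine signalling inhibitor Cish rose at least 28.8-fold, 25.2-fold, 22.9-fold and 21.4-fold.

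Some of these genes lie side by side. On mm9 the probes of Il1b and Il1a on chromosome 2 are 61.6 kb apart, those of Cxcl11 and Cxcl10 on chromosome 5 are 14.3 kb apart, and those of Ccl7 and Ccl2 on chromosome 11 are 10 kb apart. The probes of Kdm6b and Tmem88, also on chromosome 11, are 2.6 kb apart. The pairs were searched only among genes that rose at least 4-fold, so all 8 genes rose by that choice.

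The sequence before the start site is shown for 7 of the most responsive genes whose windows hold a motif, so that the elements can be seen beside the responses. Each run is the 250 bases before the RefSeq start site on GRCm38.p6, in the direction of transcription, with motif matches in capitals. The motifs searched, on both strands, were a degenerate kappa B consensus, a strict kappa B form, the AP-1 element TGANTCA, the cyclic AMP element TGACGTCA, the CArG box, the E-box CACGTG, the TATA element TATAAA, the CCAAT box CCAAT and the interferon-stimulated response element. Il1b and Tnf each hold a TATA match near the start, at chr2:129371140-129371389 and chr17:35202008-35202257, both on the minus strand.
Il1b: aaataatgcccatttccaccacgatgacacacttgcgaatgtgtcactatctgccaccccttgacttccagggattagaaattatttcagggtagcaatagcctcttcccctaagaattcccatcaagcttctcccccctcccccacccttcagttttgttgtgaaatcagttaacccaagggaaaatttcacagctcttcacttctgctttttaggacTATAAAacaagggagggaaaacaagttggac
Tnf: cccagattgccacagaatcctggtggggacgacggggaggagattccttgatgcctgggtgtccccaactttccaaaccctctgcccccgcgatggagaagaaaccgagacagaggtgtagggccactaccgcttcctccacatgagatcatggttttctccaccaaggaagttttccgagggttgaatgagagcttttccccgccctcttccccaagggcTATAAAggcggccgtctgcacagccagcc
The Tnfaip3 run, chr10:19015411-19015660 on the minus strand, was chosen from the gene's 2 windows by its number of motif types. It holds a TATA match, at -225 from the start, an AP-1 match, a kappa B match, an E-box and a second kappa B match, in that order. The Cxcl10 run, chr5:92348890-92349139 on the minus strand, holds an interferon element, a kappa B match, 2 overlapping kappa B matches, an AP-1 match and a CCAAT box.
Tnfaip3: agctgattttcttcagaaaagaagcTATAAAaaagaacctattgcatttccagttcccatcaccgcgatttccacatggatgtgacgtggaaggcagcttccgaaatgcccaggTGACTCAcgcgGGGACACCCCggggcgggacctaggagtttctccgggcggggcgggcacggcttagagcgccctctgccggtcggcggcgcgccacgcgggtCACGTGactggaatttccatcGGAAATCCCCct
Cxcl10: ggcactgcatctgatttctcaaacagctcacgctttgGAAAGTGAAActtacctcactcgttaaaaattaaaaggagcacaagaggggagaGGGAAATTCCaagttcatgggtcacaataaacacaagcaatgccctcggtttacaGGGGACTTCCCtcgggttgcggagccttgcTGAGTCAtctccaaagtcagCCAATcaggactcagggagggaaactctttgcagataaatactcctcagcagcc
Genes were shown only if their window held a motif, and the CCAAT box was in 37.7% of the windows of all genes tested. The runs of 3 genes that fell carry CCAAT matches and no other motif of those searched. They are Txnip at chr3:96557707-96557956 on the plus strand, with 2 matches, Rgs2 at chr1:144004150-144004399 on the minus strand and Zfp30 at chr7:29783718-29783967 on the plus strand.
Txnip: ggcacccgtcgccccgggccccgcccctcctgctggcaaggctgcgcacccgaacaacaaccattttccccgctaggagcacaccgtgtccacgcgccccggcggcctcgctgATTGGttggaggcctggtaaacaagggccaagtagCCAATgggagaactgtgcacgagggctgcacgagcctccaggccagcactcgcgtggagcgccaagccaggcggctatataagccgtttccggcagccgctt
Rgs2: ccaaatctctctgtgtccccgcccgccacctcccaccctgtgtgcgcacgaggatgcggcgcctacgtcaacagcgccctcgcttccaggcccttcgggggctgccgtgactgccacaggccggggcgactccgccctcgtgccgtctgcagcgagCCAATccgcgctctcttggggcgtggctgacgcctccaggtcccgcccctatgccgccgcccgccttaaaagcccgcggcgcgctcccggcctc
Zfp30: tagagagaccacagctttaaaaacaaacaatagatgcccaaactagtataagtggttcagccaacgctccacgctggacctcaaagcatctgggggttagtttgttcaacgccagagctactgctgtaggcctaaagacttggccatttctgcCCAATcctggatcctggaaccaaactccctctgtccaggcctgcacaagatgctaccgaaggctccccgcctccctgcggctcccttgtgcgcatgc

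Over windows of 300 bases, 250 before to 50 after the start, the kappa B consensus was found in 20.0% of the 145 windows of genes that rose at least 4-fold, 16.2% of the 526 windows of all risers, 6.9% of the 537 windows of fallers and 10.2% of the 13110 windows of all genes tested. The strict kappa B form was found in 2.8%, 1.3%, 0.4% and 0.5% of them. The AP-1 element was found in 11.7%, 10.1%, 4.3% and 5.6% of the same windows. The cyclic AMP element was found in 6.2%, 5.1%, 2.0% and 2.9%, and the CArG box, a serum response element, in 4.8%, 3.6%, 0.4% and 1.3%. The TATA element was in 20.0%, 12.5%, 6.7% and 8.6%, while the E-box, at 9.0%, 8.6%, 8.2% and 9.6%, was about as frequent in each set. The interferon element was in 9.0% of windows of genes that rose at least 4-fold, 4.0% of all risers, 2.4% of fallers and 3.1% of all tested. The CCAAT box, at 40.7%, 37.5%, 40.4% and 37.7% in the same order, was about as frequent in each set. These shares are counts of matching letters, were given no test, and the windows matched 401 of the risers and 411 of the fallers.

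Most components of the LPS receptor and its pathway were not called. Of 27 tested members of the receptor complex, adaptors and kinases, 4 rose (14.8%, against 3.65% of all genes) and 2 fell (7.4%, against 3.91%), or 2 rose and 0 fell after scaling to the array median, and their median difference was 0.03. Cd14, the LPS co-receptor, rose from 6.71, 6.59 and 6.62 to 7.75, 7.73 and 7.68, a difference of 1.08 ± 0.12 (adjusted p = 4.73e-06). Ticam1, which encodes the adaptor TRIF, rose by 1.28 ± 0.18 (adjusted p = 5.11e-05), and Irak2, a kinase of the MyD88 complex, by 1.00 ± 0.11 (adjusted p = 3.21e-06). Tlr4 itself stood at 2.72, 3.41 and 3.33 at 0 h and 2.03, 2.37 and 1.97 at 1 h and fell, with a difference of -1.03 ± 0.22 (adjusted p = 0.00489). Tab1, an activator of the kinase TAK1, fell too, with a difference of -0.95 ± 0.14 (adjusted p = 6.58e-05). The adaptor Myd88 and the p38 target kinase Mapkapk2 were not called, at 0.27 ± 0.25 and 0.20 ± 0.11. Scaled to the array median, Tlr4, Tab1 and Irak2 kept their direction and missed the threshold, at -0.89 (adjusted p = 0.378), -0.81 (adjusted p = 0.53) and 1.13 (adjusted p = 0.0852).

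Most early transcription factors tested rose. Of 15 AP-1 genes tested, 11 rose and 4 were not called, with a median difference of 1.43. Of the 25 tested EGR, NR4A, KLF, MYC and related factors, 15 rose and 10 were not called, with a median of 1.11. Both counts stand beside 3.65% of all genes called higher and a median of -0.10. The small MAF protein gene Maff went from -1.51, -0.71 and -1.22 to 5.23, 5.68 and 5.30, a difference of 6.55 ± 0.24 (adjusted p = 2e-13). Fosl1 and Fosl2, which encode FOS-related subunits of AP-1, rose by 4.08 ± 0.13 and 3.71 ± 0.12, and Fos itself by 3.54 ± 0.17. Junb and Jun, their partners, rose by 3.49 ± 0.12 and 2.82 ± 0.10. The 4 EGR genes, zinc finger factors known from growth factor responses, rose together. Egr1 went from -0.16, 0.57 and 0.27 to 6.55, 6.74 and 6.63, a difference of 6.41 ± 0.26 (adjusted p = 9.38e-13), Egr2 by 6.20 ± 0.27 and Egr3 by 6.43 ± 0.17, while Egr4 is the one given above as a lower bound. Myc, a driver of growth, rose by 6.04 ± 0.23 (adjusted p = 2.76e-13), and other probes for it gave 5.98 and 3.21.

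Some early factors were not called. The probes of Klf2, a factor that restrains macrophage activation, disagreed. The brighter stood at 7.68 ± 0.20 and 7.49 ± 0.01 and was not called (adjusted p = 0.87), while the other, also measured on all 6 arrays, read 1.16 ± 0.24 (adjusted p over all probes = 0.00268). Cebpd, a factor of the later LPS response, was not called at 1 h, at -0.41 ± 0.17 (adjusted p = 0.21). Fosb read 1.43 ± 0.67 and was not called (adjusted p = 0.327), but was with the replicate as a block (adjusted p = 0.0012).

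Other immediate early genes had the highest median of the groups listed here, 3.16, with 18 of 22 tested higher and 4 not called. Errfi1, which encodes an inhibitor of the EGF receptor, went from 0.24 ± 0.03 to 6.05 ± 0.06, a difference of 5.80 ± 0.10 (adjusted p = 7.4e-18). Kdm6b, the histone H3K27 demethylase JMJD3, rose by 4.94 ± 0.14. Trib1, a pseudokinase, and Btg2, an antiproliferative adaptor of mRNA deadenylation, rose by 4.65 ± 0.12 and 4.59 ± 0.22. Btg1, its relative, was not called, with levels of 7.13 ± 0.17 and 7.43 ± 0.06 (adjusted p = 0.432) on the probe used, while its second probe read 0.54 ± 0.10 (adjusted p over all probes = 0.00101).

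Most genes of the NF-kB system rose, its inhibitors among them. Of 10 tested subunits and IkB proteins, 9 rose and 1 was not called, with a median of 2.31. Nfkbia, which encodes IkB alpha, went from 4.75, 5.00 and 4.79 to 8.41, 8.59 and 8.24, a difference of 3.56 ± 0.14 (adjusted p = 6.45e-13). Nfkbid, Nfkbie and Nfkbib, genes of other IkB proteins, rose by 4.04 ± 0.17, 2.88 ± 0.13 and 1.90 ± 0.14. Relb, a subunit of the non-canonical pathway, rose by 2.72 ± 0.12. Nfkb1, the p105 and p50 subunit gene, was the 1 member not called on the probe used, at 0.20 ± 0.21 (adjusted p = 0.886), but its other probes were all called higher, at 2.15, 1.92 and 2.16 (adjusted p over all probes = 0.00316, 1.87e-06 and 5.55e-08), and the mean of its probes was 1.61 (adjusted p = 1.79e-06).

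Many ubiquitin-system regulators and survival genes downstream of NF-kB also rose. Of 26 tested genes for A20, its partners, TRAF adaptors and IAP proteins, 15 rose and 11 were not called, with a median of 0.59. After scaling to the array median 9 were called. Traf1, an adaptor of TNF receptors, went from 1.14, 1.25 and 1.03 to 7.31, 7.21 and 7.07, a difference of 6.06 ± 0.12 (adjusted p = 3.9e-17). Birc3, an inhibitor of apoptosis and ubiquitin ligase, rose by 2.32 ± 0.16 (adjusted p = 2.92e-09). Tnip3, a partner of A20, and Tnfaip2 rose by 2.35 ± 0.17 and 2.63 ± 0.20. Cflar, which encodes the caspase-8 inhibitor FLIP, rose by 2.65 ± 0.17 on the probe used and by 2.89, 3.43, 3.34 and 3.52 on 4 others, while a further probe for it read 0.04.

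MAP kinase phosphatases moved in both directions. Of 14 tested DUSP, SPRY and SPRED genes, 6 rose and 3 fell. Dusp1, which inactivates p38 and JNK, went from -0.47, -0.13 and -0.01 to 5.77, 6.21 and 6.28, a difference of 6.29 ± 0.20 (adjusted p = 1.77e-14). Dusp2, a nuclear phosphatase, rose by 5.30 ± 0.11, Dusp4 by 3.51 ± 0.14 and Dusp16 by 1.87 ± 0.11. Dusp4 had a missing value on 1 array. Dusp6, a cytoplasmic ERK phosphatase, fell from 1.15, 2.27 and 2.09 to 0.12, 0.41 and -0.10, a difference of -1.69 ± 0.35 (adjusted p = 0.00328). After scaling to the array median 1 member was called lower instead of 3.

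Regulators of cytokine mRNA decay and of cytokine receptors were part of the early response. Of 15 tested genes of mRNA decay, 6 rose (40%, against 3.65% of all genes) and 9 were not called. Zfp36, which encodes tristetraprolin, a protein that destabilises the Tnf message, went from -0.36, -0.31 and -0.21 to 4.49, 4.71 and 4.96, a difference of 5.01 ± 0.14 (adjusted p = 3.78e-15). Zc3h12a, the endonuclease regnase-1, rose by 4.82 ± 0.58 (adjusted p = 7.33e-06) and was measured on 1 of 3 arrays at 0 h. Zc3h12c and Zfp36l1, relatives of both, rose by 2.56 ± 0.17 and 1.14 ± 0.20. Pabpc1, the poly(A)-binding protein gene, was not called, at -0.16 ± 0.09 (adjusted p = 0.492). Of 13 tested SOCS and related genes, 4 rose (30.8%) and 9 were not called. Socs3, an inhibitor of IL-6 type receptors, went from 3.00, 3.48 and 3.61 to 7.20, 7.36 and 7.17, a difference of 3.88 ± 0.16 (adjusted p = 8.26e-13). Socs1, an inhibitor of JAK kinases, rose by 2.67 ± 0.21 (adjusted p = 2.1e-08).

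**Figure D3:**
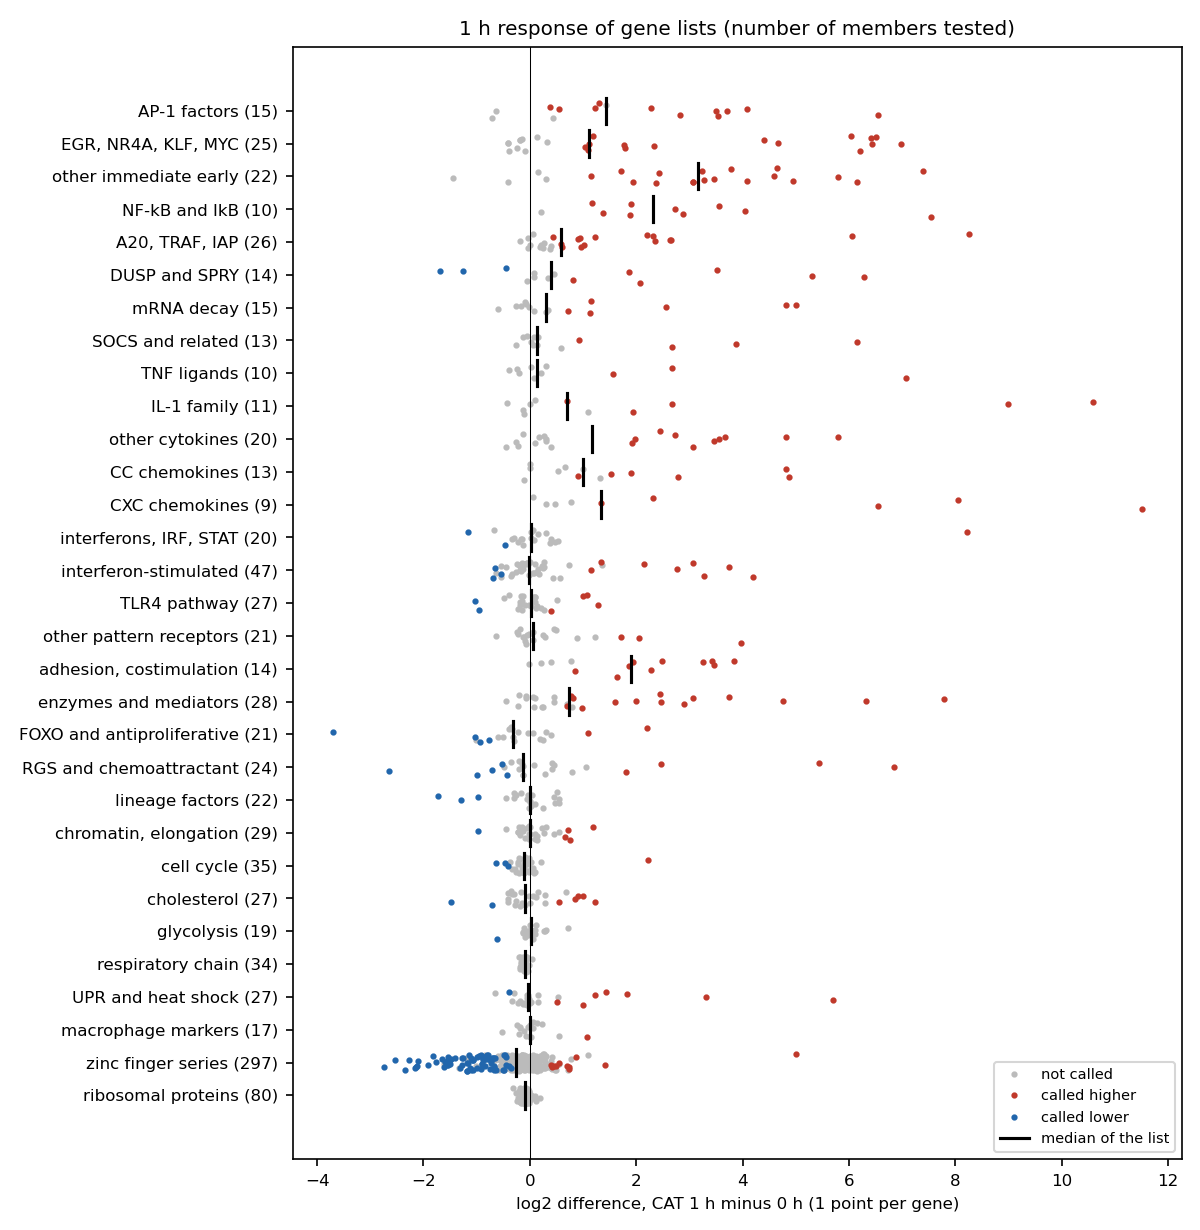
Log2 difference between 1 h and 0 h in the CAT line for the tested members of the gene groups, 1 point per gene and the number tested in brackets; red points were called higher, blue lower and grey not called, and black bars are medians. Early transcription factors, NF-kB and IkB genes, cytokines and adhesion molecules lie mostly to the right of 0, ribosomal and respiratory chain genes lie at it, and the zinc finger series has a tail to the left.

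Secreted signals differed in how many family members responded. Of 10 tested TNF ligands 3 rose and 7 were not called. Those called were Tnf, Tnfsf9, the 4-1BB ligand, which rose by 2.68 ± 0.15 (adjusted p = 1.5e-10), and Tnfsf4. Tnfsf4 was below background on every array at both times, with mean levels of -6.77 and -5.22, so its rise lies within the floor. Of 11 tested genes of the IL-1 family and its processing, 5 rose and 6 were not called. Besides Il1b and Il1a these included the receptor antagonist Il1rn, which rose by 1.94 ± 0.19 (adjusted p = 6.08e-07), and the inflammasome sensor Nlrp3, which went from -2.94, -2.62 and -2.23 to 0.18, -0.06 and 0.11, a difference of 2.67 ± 0.20 (adjusted p = 1.01e-08). Of 20 tested genes for other cytokines and growth factors, 10 rose and 10 were not called. The macrophage growth factor Csf1 rose by 3.46 ± 0.21 (adjusted p = 5.55e-10), the IL-6 type cytokine Osm by 3.07 ± 0.25. Below background on all 3 arrays at 0 h were Areg, the EGF receptor ligand amphiregulin, at least 16.4-fold higher at 1 h, the granulocyte factor Csf3, at least 10.4-fold higher, and Il6, at least 3.16-fold higher. Il6 rose from a floor. Repaired normexp background correction, an alternative chosen after seeing the data, set single very bright local backgrounds to the array's median. The repair changed 1 of the 6 arrays. Repaired normexp also added an offset of 50 to every corrected signal, which the main values lack. With repaired normexp the Il6 difference was 0.40 instead of 3.56 and missed the threshold. The parts of the offset and of the background correction in that change were not tested. Tgfb1, an anti-inflammatory cytokine, and Ebi3 and Il27, the subunits of interleukin-27, were not called, at 0.09 ± 0.18, 0.31 ± 0.15 and -0.22 ± 0.26.

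Chemokine genes rose in part within the hour. Of 13 tested CC chemokines 6 rose and 7 were not called, and of 9 tested CXC and CX3C chemokines 5 rose and 4 were not called. Ccl4, which encodes MIP-1 beta, went from 2.45, 2.66 and 2.45 to 7.34, 7.53 and 7.33, a difference of 4.88 ± 0.13 (adjusted p = 2.37e-15). Ccl2, the monocyte chemokine MCP-1, went from 2.08, 2.94 and 2.65 to 5.46, 5.42 and 5.15, a difference of 2.79 ± 0.17 (adjusted p = 7.6e-10). Ccl3 and Ccl5 rose by 1.90 ± 0.25 and 1.52 ± 0.18, and Ccl7 at least 9.17-fold from below background. Cxcl16, a ligand that is also a scavenger receptor, rose by 1.34 ± 0.29 (adjusted p = 0.00441). Ccl24, an eosinophil chemokine, was not called, at 0.99 ± 0.48 (adjusted p = 0.355). The medians of both groups, 0.99 and 1.34, were 0.15 and 0.11 with repaired normexp background correction. Above background on all 6 arrays were 8 of 13 and 4 of 9 members.

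The RNA of interferon beta had risen at 1 h, while most interferon-stimulated genes were not called. Of 20 tested interferons, IRF and STAT genes, Ifnb1 was the 1 that rose (5%) and 2 fell (10%). Of 47 tested interferon-stimulated genes 8 rose (17%, against 3.65% of all genes) and 3 fell (6.4%, against 3.91%), with a median of -0.01. Ifit1, which binds foreign RNA ends, went from -3.02, -3.83 and -3.16 to 0.57, 1.05 and 0.92, a difference of 4.19 ± 0.17 (adjusted p = 7.67e-13). Isg15, a ubiquitin-like modifier, rose by 3.74 ± 0.15, Oasl1 by 3.27 ± 0.12, the guanylate-binding protein gene Gbp3 by 2.76 ± 0.16 and Slfn2 by 2.14 ± 0.12. Rsad2, which encodes viperin, rose by 3.07 ± 0.20 from a level measured on 1 of 3 arrays, and its other probes read 2.20 (adjusted p over all probes = 0.00149) and 1.08 (0.529). Stat2, a subunit of the interferon-induced factor ISGF3, fell from 0.35, 0.14 and -0.05 to -1.17, -0.93 and -0.94, a difference of -1.16 ± 0.15 (adjusted p = 2.14e-05), and missed the threshold with median scaling, at -1.02 (adjusted p = 0.118). Irf1 was not called, at 0.53 ± 0.18 (adjusted p = 0.0887). The counts of falls were thin, since the 3 interferon-stimulated fallers became 1 without the third array of either time and 5 with the replicate as a block, and the 2 other fallers became 1 without the third 0 h array. After scaling to the array median 0 of either group were called lower.

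Adhesion and costimulatory molecules mostly rose, and effector enzymes and pattern recognition receptors did so in part. Of 14 tested adhesion and costimulatory genes 10 rose and 4 were not called, with a median of 1.90, which became 1.02 with repaired normexp background correction. Cd83, a marker of activated antigen-presenting cells, went from 3.85, 3.91 and 3.68 to 7.80, 7.66 and 7.49, a difference of 3.84 ± 0.11 (adjusted p = 6.82e-15). Icam1, the integrin ligand, went from 4.33, 4.72 and 4.67 to 7.24, 7.19 and 6.75, a difference of 2.49 ± 0.20 (adjusted p = 4.1e-08). Plaur, the urokinase receptor, Cd40, a costimulatory receptor, and Itga5, a fibronectin receptor chain, rose by 3.46 ± 0.17, 3.43 ± 0.22 and 3.26 ± 0.12. Cd44, the hyaluronan receptor, was not called, at 0.39 ± 0.19 (adjusted p = 0.356), though it was with the replicate as a block (adjusted p = 0.00668). Of 28 tested enzymes and secreted mediators 14 rose and 14 were not called. Acod1 went from 1.09, 1.54 and 1.28 to 7.85, 7.67 and 7.37, a difference of 6.32 ± 0.14 (adjusted p = 1.14e-16). Sod2, mitochondrial superoxide dismutase, was not called, at 0.45 ± 0.16 (adjusted p = 0.0987), though it was with the replicate as a block (adjusted p = 0.0259). Of 21 tested pattern recognition receptors 3 rose and 18 were not called, or 5 rose with quantile normalization. The C-type lectin Clec4e rose by 3.97 ± 0.19, the cytosolic sensor Nod2 by 2.05 ± 0.17 and Tlr2 by 1.72 ± 0.20.

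Stress and lipid genes were called higher more often than all genes tested, and cell cycle genes mostly were not called. Of 27 tested genes of the unfolded protein and heat shock responses 7 rose (25.9%, against 3.65% of all genes) and 1 fell. Ppp1r15a, the GADD34 phosphatase subunit that restores translation, went from -1.92, -2.05 and -2.36 to 3.21, 3.68 and 3.87, a difference of 5.70 ± 0.26 (adjusted p = 4.23e-12). Mdm2, the p53 ubiquitin ligase, rose by 1.82 ± 0.09, and Cdkn1a, the p21 cell cycle inhibitor, by 2.22 ± 0.17 (adjusted p = 1.74e-08). Cdkn1a was the 1 riser among 35 tested replication and mitosis genes (2.9%). Of these genes 3 fell (8.6%, against 3.91% of all genes), or 1 without the second 1 h array and 0 after scaling to the array median. Ccnd1, the cyclin D1 gene, fell, with a difference of -0.46 ± 0.09 (adjusted p = 0.00305), and with median scaling read -0.32 and was not called. Of 27 tested genes of cholesterol and fatty acid metabolism 5 rose (18.5%) and 2 fell, or 2 rose and 1 fell after scaling to the array median. Insig1, a brake on sterol synthesis, and Abca1, a cholesterol exporter, rose by 1.22 ± 0.17 and 0.99 ± 0.14, and Mylip, a ubiquitin ligase for the LDL receptor, fell, with a difference of -1.49 ± 0.14 (adjusted p = 2.28e-07). The 2 falls became 1 without the second 0 h array or the third array of either time, and 5 with the replicate as a block. Of 29 tested chromatin and elongation genes 4 rose (13.8%) and 1 fell (3.4%, near the 3.91% of all genes). Without the first 0 h array 2 rose, and after scaling to the array median 1 rose and 0 fell. Ell2, an elongation factor, rose by 1.18 ± 0.09.

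Basal metabolism and translation genes gave almost no calls at this time. Among 80 ribosomal protein genes and 34 respiratory chain and ATP synthase genes 0 were called by limma, with or without the replicate as a block, and 0 and 0 had an unadjusted p under 0.05. The median difference was -0.09 in each. Of 19 glycolysis genes 1 fell (5.3%, near the 3.91% of all genes), or 0 after scaling to the array median, and 18 were not called. Of 11 tested histone genes 2 rose, H1f2, a linker histone, by 0.75 ± 0.11 and H3f3b, a replication-independent histone H3, by 0.58 ± 0.13 (1.04 and 0.18 on its other probes), and neither was called after scaling to the array median.

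The largest fall was that of Txnip, which encodes a thioredoxin-binding arrestin that limits glucose uptake. It stood at 3.16, 3.24 and 3.33 at 0 h and -0.69, -0.38 and -0.29 at 1 h, a difference of -3.70 ± 0.12 (adjusted p = 1.61e-14), and a second probe gave -2.52. Rgs2, a regulator that ends G protein signalling, stood at 5.66, 6.19 and 6.08 at 0 h and 3.09, 3.60 and 3.28 at 1 h, a difference of -2.65 ± 0.16 (adjusted p = 5.12e-10). Both genes had separate groups, with every 1 h array below every 0 h array. Angptl4, an inhibitor of lipoprotein lipase, stood at 2.91, 3.07 and 3.03 at 0 h and 0.99, 0.84 and 0.46 at 1 h, a difference of -2.24 ± 0.20 (adjusted p = 1.36e-07). Alkbh4, a demethylase of the AlkB family, stood at 0.51, 0.39 and 0.41 at 0 h and -1.65, -1.73 and -1.98 at 1 h, a difference of -2.23 ± 0.14 (adjusted p = 8.69e-10). Cnr2, the cannabinoid receptor of immune cells, stood at 0.63, 0.72 and 0.76 at 0 h and -1.46, -1.67 and -1.22 at 1 h, a difference of -2.15 ± 0.13 (adjusted p = 2.95e-10). None of the 3 overlapped between the times. The other large falls outside the zinc finger genes were those of AI467606, Tmem140, a transmembrane protein gene, Nhlrc1, which encodes the ubiquitin ligase malin, and Inka1, a kinase inhibitor gene. Their differences were -2.04 ± 0.14, -1.95 ± 0.18, -1.90 ± 0.15 and -1.87 ± 0.26.

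Zinc finger genes were frequent among the falls. Of 297 tested genes of the Zfp, Zkscan, Zscan and Zbtb series, most of which encode DNA-binding proteins, 77 fell and 11 rose, against 3.91% of all genes called lower, and their median was -0.27 against -0.10. Of the 15 largest falls 6 were such genes. Zkscan14 stood at 0.13, -0.01 and -0.05 at 0 h and -2.25, -2.33 and -2.40 at 1 h, a difference of -2.35 ± 0.16 (adjusted p = 3.27e-09). Zfp273 stood at -1.12, -1.30 and -1.21 at 0 h and -3.51, -3.31 and -3.30 at 1 h, a difference of -2.16 ± 0.11 (adjusted p = 3.73e-11). Zfp30 stood at -1.65, -0.80 and -1.07 at 0 h and -3.77, -3.05 and -3.54 at 1 h, a difference of -2.28 ± 0.29 (adjusted p = 1.48e-05). In each of them every 1 h array lay below every 0 h array. Zfp647, Zfp763 and Zfp773 had differences of -2.13 ± 0.24, -2.10 ± 0.21 and -1.92 ± 0.35. Zkscan4 was below background on all 3 arrays at 1 h and fell at least 4.75-fold (adjusted p = 0.0152), but missed the threshold without the second or the third 0 h array or the third 1 h array (adjusted p = 0.0564, 0.0568 and 0.0817). Zfp78, also below background at 1 h, fell at least 2.63-fold, and with repaired normexp background correction was not called, at -0.36. The list's main riser was Zfp36, whose product destabilises mRNA, unlike the DNA-binding proteins that most of the series encode. Zkscan17 was not called, at -0.32 ± 0.14. With scaling to the array median, 25 fell and 3 rose with a median of -0.14, where the median of all genes was 0.04; with the replicate as a block 106 fell and 19 rose. The CCAAT box was found in 53.2% of the 79 promoter windows of the zinc finger genes that fell and in 41.6% of the 233 windows of those tested that did not. Its share was 40.4% in the windows of all fallers and 37.7% in those of all genes tested.

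Genes linked with quiescence and with the macrophage's receptors and identity gave smaller groups of falls. Of 21 tested FOXO targets and antiproliferative genes 4 fell (19%, against 3.91% of all genes) and 2 rose (9.5%, against 3.65%), with a median of -0.32. The falls became 2 without the second or without the third 0 h array, and 1 after scaling to the array median. Tsc22d3, the glucocorticoid-induced GILZ gene, fell, with a difference of -0.77 ± 0.11 (adjusted p = 6.84e-05), and with median scaling missed the threshold at -0.63 (adjusted p = 0.544), while its relative Tsc22d1 rose by 2.21 ± 0.16 (adjusted p = 6.14e-09). Sesn1, a p53 and FOXO target, was not called, at -0.59 ± 0.21 (adjusted p = 0.126), but was with the replicate as a block (adjusted p = 0.0205), and another of its probes read -0.55 (adjusted p over all probes = 0.0126). Of 24 tested RGS and chemoattractant receptor genes 4 rose (16.7%) and 5 fell (20.8%), or 1 fell after scaling to the array median. Besides Ccrl2, the fatty acid receptor Gpr84 and the regulator Rgs16 rose by 5.44 ± 0.16 and 2.46 ± 0.14. P2ry6 and Rgs10 were not called, at -0.21 ± 0.21 and -0.20 ± 0.15. Of 22 tested macrophage lineage factors 3 fell (13.6%) and 19 were not called. Ikzf1, which encodes the lymphoid and myeloid factor Ikaros, went from -2.19, -1.92 and -2.09 to -3.74, -4.04 and -3.62, a difference of -1.73 ± 0.14 (adjusted p = 2.66e-08). Cebpa, a master factor of myeloid fate, fell with a difference of -0.98 ± 0.12 (adjusted p = 7.28e-06), which with median scaling was -0.84 (adjusted p = 0.373), and its second probe read -0.60 (adjusted p over all probes = 0.374). Gfi1, a transcriptional repressor, fell at least 2.44-fold, to below background on all 3 arrays. With the replicate as a block 2 lineage factors were called higher, and after scaling to the array median 1 was called lower.

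The later arrays of the same line place the 1 h changes in time. The 3 h minus 1 h comparison shares the 1 h arrays with the comparison above, so its values are given side by side and not as independent results. Between 1 h and 3 h, 15.9% of all genes were called higher and 13.7% lower. The genes named here were chosen after their values were seen. Egr1, Nr4a1, Jun and Fosl2 were lower at 3 h than at 1 h, with differences of -5.37 ± 0.26, -5.90 ± 0.22, -5.95 ± 0.10 and -2.46 ± 0.12 (largest adjusted p = 1.18e-11). Jun at 3 h, at -2.95, was below its level of 0.19 at 0 h. Tnf, Cxcl2, Phlda1, Ccrl2, Nlrp3 and Tnfsf9 were not called between 1 h and 3 h, with differences of 0.30 ± 0.14, 0.21 ± 0.25, -0.36 ± 0.15, 0.45 ± 0.25, 0.04 ± 0.20 and 0.16 ± 0.15. Il1b, Il1a, Acod1 and Cish were higher again at 3 h, by 2.54 ± 0.26, 3.10 ± 0.25, 1.99 ± 0.14 and 4.85 ± 0.29, and Il6 and Ifit1 by 6.70 ± 0.27 and 5.79 ± 0.17. Irf1, not called at 1 h, was higher at 3 h than at 1 h by 2.60 ± 0.18. Of the genes that fell, Txnip, Alkbh4, Tmem140 and Stat2 were higher at 3 h than at 1 h, by 1.95 ± 0.12, 1.53 ± 0.14, 3.14 ± 0.18 and 3.15 ± 0.15. Rgs2 was not called between 1 h and 3 h, at -0.36 ± 0.16, and Cnr2 was lower still, at -1.45 ± 0.13.

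**Figure D4:**
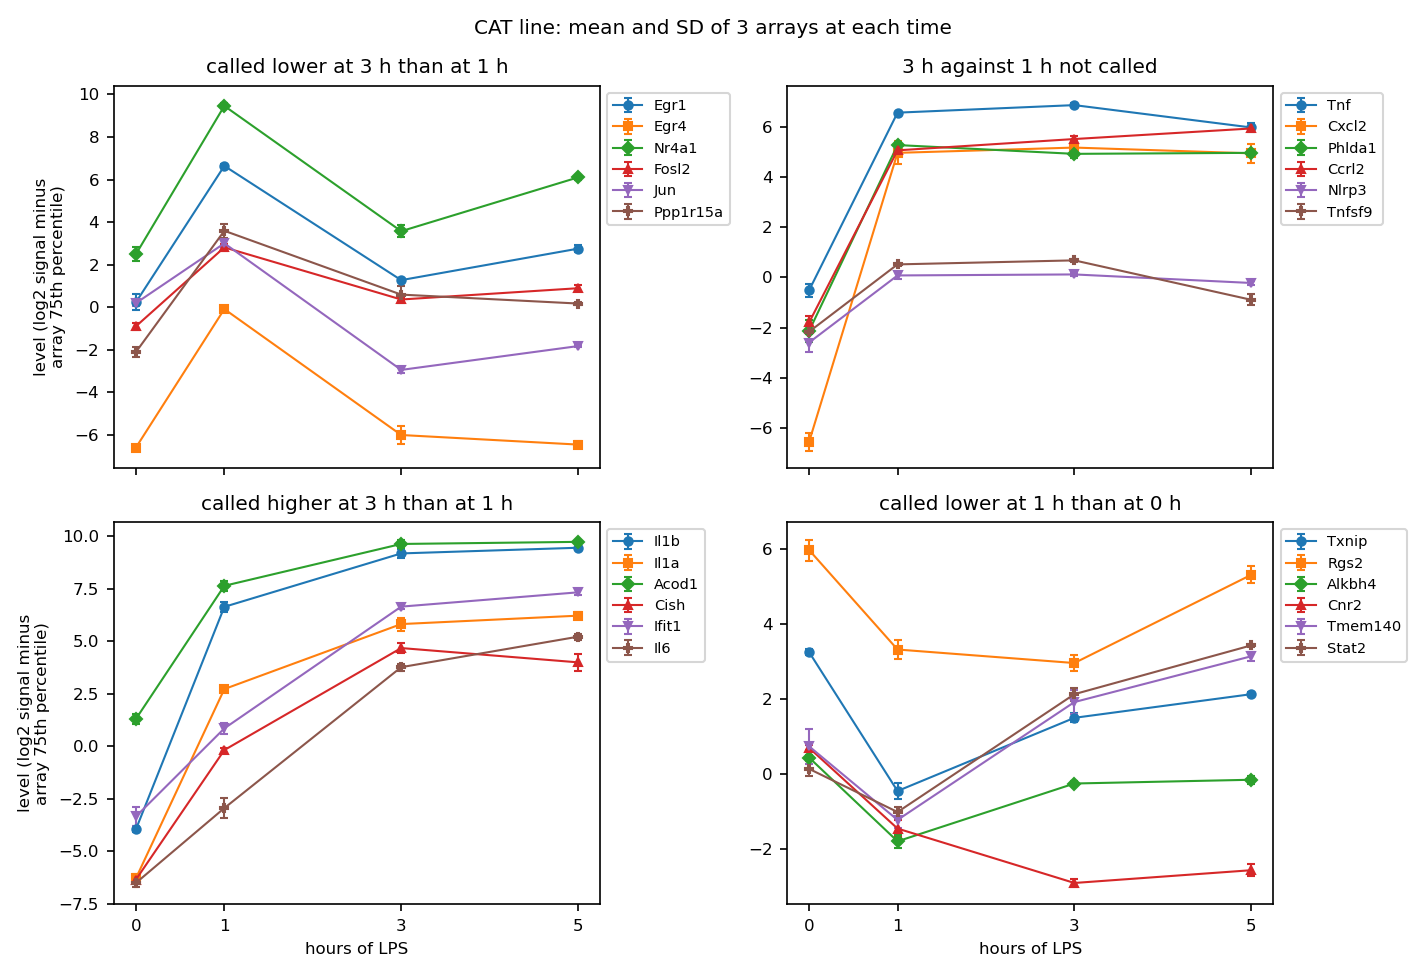
Mean level (log2 signal minus the array's 75th percentile) with SD of 3 CAT arrays at 0, 1, 3 and 5 h of LPS for 24 genes chosen after their values were seen: called lower at 3 h than at 1 h, not called between them, called higher, and called lower at 1 h than at 0 h. Egr1, Nr4a1 and Jun peak at 1 h, Tnf and Cxcl2 differ little between 1 h and 3 h, Il1b and Il6 climb further, and Txnip and Stat2 return upwards after 1 h.

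The line labelled Tbc1d23, measured on 6 other arrays at 0 h and 1 h, gave fewer calls. Its arrays were less even, with 42.1 to 69.6% of probes well above background and 12.5 to 42.1% surrogate values at background at 0 h, and 46.3 to 53.6% and 28.3 to 37.8% at 1 h, where the CAT arrays at 0 h had 51.1 to 53.3% and 29.7 to 32.2%; the part of this in the lower counts was not tested. In it 125 genes were called higher (0.829%) and 127 lower (0.842%). Of the 551 genes that rose in the CAT line, 463 (84.0%) had a positive difference there, against 30.5% of all genes tested, and 119 were called higher and 2 lower. Of the 590 that fell, 536 (90.8%) had a negative difference, against 69.5% of all genes, and 54 were called lower. The median difference in that line was 0.21 for the CAT risers, -0.27 for the CAT fallers and -0.09 for all genes. The arrays of that line were laid out by time on the slide in the same way. The difference between the lines in the 1 h response was called for 360 genes (2.39%), and for 241, 299 and 391 without replicate 1, 2 or 3 of that line. It was called for 66 with scaling to the array median and 925 when slides entered as a random block. Normexp background correction gave 43 such calls unrepaired and 277 repaired. In the main fit the difference was called for 250 CAT risers, with the smaller response in the line labelled Tbc1d23 for 249 of them. Among CAT fallers it was called for 92, all of them smaller there. As these genes were picked for their change in the CAT line, a smaller mean change elsewhere is in part fixed by that choice.

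Single genes differed in how far apart the lines were. Egr1 rose by 6.41 ± 0.26 in the CAT line and 7.05 in the other, and the difference of 0.63 was not called (adjusted p = 0.826). For Fos, Cd83, Zfp36 and Ccrl2 the difference was not called either, with responses of 3.54 and 3.92, 3.84 and 3.73, 5.01 and 4.59, and 6.85 and 6.06 in the CAT line and the other line. Il1b rose by 10.58 and 6.62, a difference between lines of -3.96 (adjusted p = 9.43e-07), with the other line below background on all 3 arrays at 0 h. Traf1 rose by 6.06 and 2.26, a difference of -3.80 (adjusted p = 8.16e-11). Il1a gave 8.99 and 1.33, and Egr4 6.51 and -0.27, both from below background in the CAT line at 0 h, so these 2 sizes are fitted values and not bounds. Among the falls, Rgs2 gave -2.65 and 0.02, a difference of 2.67 (adjusted p = 3.2e-07), and Txnip -3.70 and -0.66, a difference of 3.04 (adjusted p = 7.82e-10). Ikzf1 gave -1.73 and -1.52, and the difference between lines was not called.

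**Figure D5:**
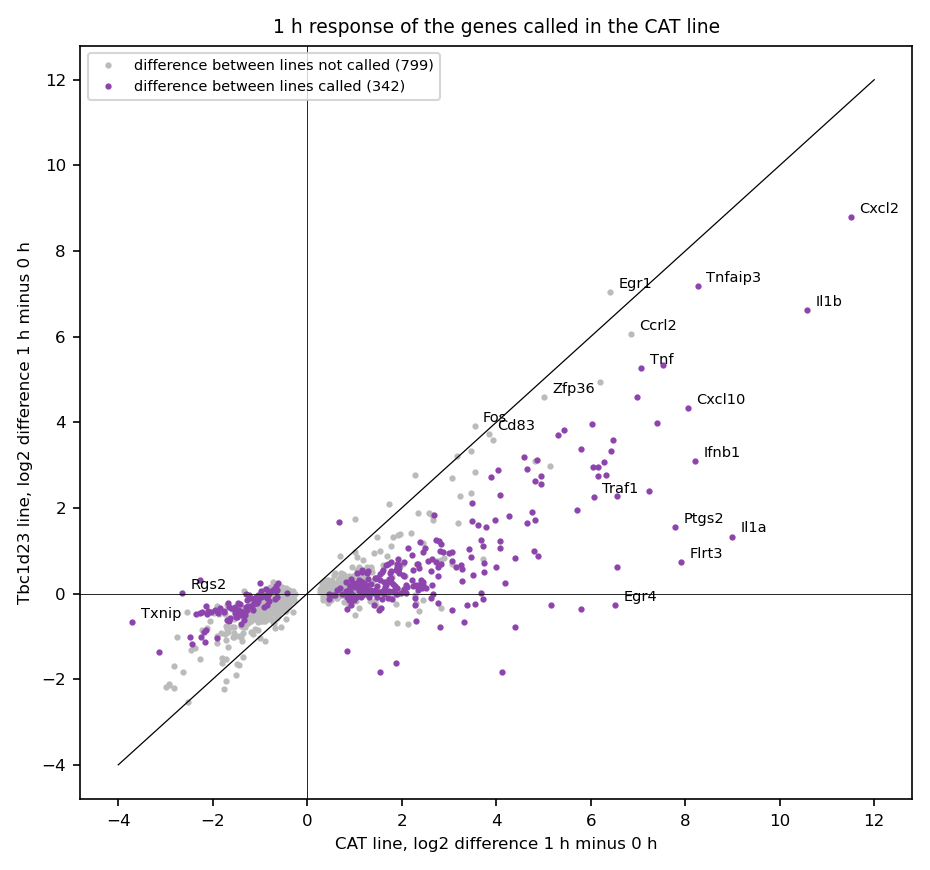
Log2 difference between 1 h and 0 h in the CAT line (horizontal) and in the line labelled Tbc1d23 (vertical) for the 1141 genes called in the CAT line, with the diagonal marking equal responses. The 342 genes whose difference between lines was called (purple) lie between the diagonal and the horizontal line at 0 for the most part, while Egr1, Fos, Cd83, Zfp36 and Ccrl2 lie near the diagonal.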

How the data were processed

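The members and the gene lists were chosen with earlier results of these data known. Intensity values were the scanner outputs deposited by the authors, and per the file headers Feature Extraction 10.7.1.1 of Agilent made them. The processed signal is background-subtracted there, and the quality flags, which belong to no unit, came from the same deposited files. The table of log2 values that the authors deposited, for which the submitters' processing notes name RMA and Partek, was an alternative. Its scale and centring are not stated, every column has a median of 3.873, and its ranks followed those of the processed signal, with Spearman's rho of 0.99991 to 0.99996 on the 6 arrays.

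Of 43379 spots per array, spots flagged as outliers were left out (0.17 to 0.24% of an array) and spots of the same probe were averaged to 41174 probes. Values were log2 signals minus the array's 75th percentile. A probe was kept if it was well above background on every array of any 1 of the 8 groups (21964 probes), and the brightest probe stood for each gene. This left 15079 genes, of which 5077 had several probes. Names were updated through RefSeq accessions (25248 probes) or unique synonyms (1612 probes) of GRCm38.p6, while probe positions are those of mm9 in the files. Among 427 called genes with several probes, all probes had the same sign for 377. No spot was saturated on these arrays, and 28.3 to 32.8% of spots carried a surrogate value that Feature Extraction sets for signals at background, so differences of dim genes are less certain.

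Group means of all 24 arrays were fitted with limma 3.58.1 in R 4.3.3 with eBayes, and p-values were adjusted by Benjamini-Hochberg over all genes. Sharing the fit uses the spread of all groups. With 3 arrays against 3, no exact permutation test can give less than 0.1, and none was used. Genes named are the 15 largest rises and falls measured on all 6 arrays, the largest bounds (10 up, 5 down) and, for each list, up to 6 called and 3 not called members; of these some are named, others are not reported here, and exceptions are said to be chosen after their values were seen. P-values measure the spread between these arrays, which may be technical. The number of arrays limits the precision.

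Same-numbered arrays share a slide and deviated together (r = 0.23, 0.67 and 0.35, others -0.49 to 0.07), so the replicate number may pair the arrays. The calls, standard errors and adjusted p-values above come from a fit without this pairing, except where a block is named. Tested on simulated data of 15079 genes, the fit recovered 26, 60, 82 and 92% of 50 genes each changed by 0.5, 1, 2 and 3 on the log2 scale in the 1 h minus 0 h comparison, with 7 false calls. The simulated noise was drawn independently for each array, without the shared slides of the real arrays. These rates may therefore not hold for the real arrays. Alternatives covered scaling, background correction, filters, probe choice, arrays in the fit, blocks, eBayes and each array left out.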

Additional observations from a re-analysis of the deposited data

Results flagged for a closer look

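The 1 h response differed between the CAT line and the line labelled Tbc1d23 by the test of the difference itself for 33 of the genes that the report names as the largest changes. The values are the response of the line labelled Tbc1d23 minus that of the CAT line, on the log2 scale, so a negative value for a gene that rose in the CAT line is a smaller rise in the other line. Il1a, Cxcl11, Ifnb1, Cxcl2, Egr4, Flrt3, Ptgs2 and Cish were below background on all 3 CAT arrays at 0 h, so their values are fitted values that rest on a floor, and their sizes are not measured. Il1b was below background on all 3 arrays of the other line at 0 h, so its value also rests on a floor. Among cytokine and chemokine genes they were Il1a -7.66, Cxcl11 -5.93, Ifnb1 -5.11, Il1b -3.96, Cxcl10 -3.72, Cxcl2 -2.70 and Tnf -1.82. Among transcription factors they were Egr4 -6.78, Maff -4.28, Egr3 -3.11, Nr4a1 -2.39 and Nfkbiz -2.20. Among enzymes, inhibitors and other risers they were Flrt3 -7.18, Ptgs2 -6.21, Acod1 -3.54, Phlda1 -3.43, Cish -3.41, Dusp1 -3.23, Arc -3.19 and Tnfaip3 -1.08. For genes that fell in the CAT line a positive value is a smaller fall, and they were Txnip 3.04, Rgs2 2.67, Alkbh4 1.79, AI467606 1.59, Tmem140 1.56, Cnr2 1.29, Angptl4 1.23 and Nhlrc1 0.86, and among zinc finger genes Zkscan14 1.86, Zfp30 1.82, Zfp763 1.69, Zfp647 1.65 and Zfp273 1.03. These genes were picked for a large change in the CAT line, which by itself favours a smaller value elsewhere.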

How the results depend on the processing

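With scaling to the array median 417 genes were called in place of 1141, 315 higher and 102 lower, and the line difference was called for 66 in place of 360. Normexp with single very bright local backgrounds left in gave 199 calls, 163 higher and 36 lower, 185 of at least 2-fold in place of 513, and 43 for the line difference. With those backgrounds set to the array's median (repaired normexp), an alternative chosen after seeing the data, 985 genes were called, 497 higher and 488 lower. Of these calls 267 were of at least 2-fold, and the line difference was called for 277. Both normexp forms added an offset of 50 to every corrected signal, and its part in these counts was not tested. With the replicate as a block in a fit of the 12 CAT arrays 1863 genes were called, 1110 of them lower, and the block changed the calls of Fosb, Cd44, Sod2, Sesn1 and Ighm among the genes named. With the slide as a random block (consensus correlation 0.571) 2423 were called, 934 higher and 1489 lower, and 925 for the line difference. Leaving out 1 array gave 916 to 1005 calls, 458 to 496 higher, 421 to 540 lower and 488 to 504 of at least 2-fold. Dim signals limit both directions, since 60 risers were below background at 0 h and 28 fallers at 1 h. With the mean of its probes Nfkb1 read 1.61. Among genes not called, the sign turned for Klf2 with the mean of its probes (0.49), within the first slide for Cebpd (0.23), within the third slide for Nfkb1 (-0.16) and within the second and the third for Tbc1d23 (-0.01 and -0.15). With 1 array left out Nfkb1 ranged from -0.11 to 0.35 and Tbc1d23 from -0.04 to 0.20.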
